A study of Homo sapiens with 28 samples.

Results

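Azacitidine at 1 µM was compared with vehicle in A549, a human lung adenocarcinoma cell line, on 4 of the 28 arrays of the series. The 2 treated and 2 vehicle arrays were chosen by their labels: A549 cells given AZA 1 µM for 48 h with drug renewed daily, and A549 cells given dimethyl sulfoxide alone. For the vehicle arrays no time was recorded. The other A549 arrays used here, 2 per group, carried azacitidine at 0.3 or 3 µM or decitabine at 1 µM, and the same treatment and vehicle in H1299, another lung cancer line, served for the comparison between lines. Total RNA was measured on 1-colour Affymetrix oligonucleotide arrays, in MAS5 signal, a linear brightness value for each probe set. Nothing in the labels says that the 2 arrays of a group came from separate cultures, so the spread between them may be technical. Each p and standard error rests on the spread within groups, estimated over all 28 arrays in 14 groups, H1299 and decitabine included.

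Azacitidine is a ribonucleoside analog of cytidine. Cells phosphorylate it and build most of it into RNA, and a part is reduced to the deoxyribose form and built into DNA, where it traps DNA methyltransferases so that methylation is lost as cells divide. Decitabine is the deoxyribose analog and enters DNA only. The integrated stress response, to which much of what follows refers, is the programme in which kinases that sense amino acid shortage, unfolded protein, heme deficiency or double-stranded RNA phosphorylate the initiation factor eIF2. General translation then drops while the transcription factor ATF4 is translated and turns on genes for amino acid synthesis, amino acid transport and transfer RNA charging.

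The arrays carried the defining genes of the labelled line. KRT7 lay between 7928 and 13326 on the 14 A549 arrays and between 3.95 and 45.5 on the 14 H1299 arrays, and ALDH1A1 between 12628 and 15707 against 1.17 to 3.74. CDKN2A was low in A549 (33.6 to 106) and high in H1299 (745 to 1658), while the lung markers NKX2-1 and SFTPC were dim in A549 (3.80 to 27.0 and 8.16 to 53.8). Of 19 leukocyte markers on the array, 18 lay below the array median on both vehicle arrays and 19 on both treated arrays. The 2% trimmed mean was 500.125 to 500.159 on every array. Vehicle replicate 1 stood apart at the dim end, with a 25th percentile of 28.3 and a median of 123, against 19.4 to 20.1 and 99.2 to 106 on the other 3 arrays of the comparison. The log2 ratio of the 3' to the 5' ACTB control probe sets was 1.76 and 1.62 with vehicle and 2.06 and 2.26 with azacitidine, while that of GAPDH lay between -0.08 and 0.09; the part of either in the results was not tested. The number of arrays limits the precision.

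Azacitidine at 1 µM raised 1050 of the 8024 genes tested, 13.1%, and lowered 971, 12.1%, at a Benjamini-Hochberg adjusted p below 0.05 in limma (genes past this threshold are termed called). Of these, 65 rose and 86 fell by at least 1 on the log2 scale, and the median difference over all genes was -0.01. All differences are on the scale log2(signal + 32), which draws those of dim genes toward 0. Counts of list members against vehicle are to be read beside these 13.1% and 12.1%, which several lists came near. The 4 largest rises were those of NIBAN1, TRIB3, ATF3 and STC2, all members of the integrated stress response list. That list, like the others, was written with earlier results of these data known. The 4 largest falls were those of CYP3A4, a cytochrome, the chemokine CCL2, the fibrinogen chain FGB and AGR2, a disulfide isomerase. Of the 2021 calls, 2018 had treated and vehicle arrays that did not overlap, which nearly follows from the call itself and is not separate support. Without vehicle replicate 1 the counts were 697 higher and 610 lower, and without azacitidine replicate 2 they were 643 higher and 649 lower.

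**Figure D1:**
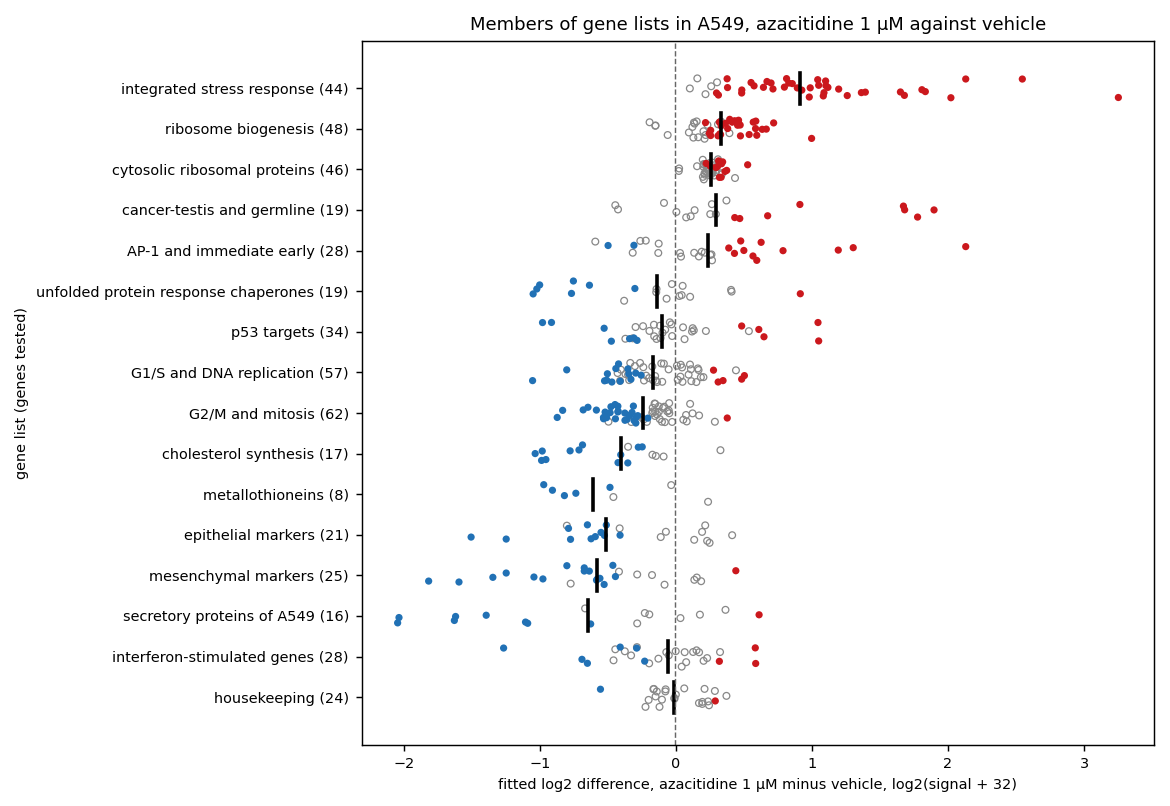
Fitted log2 difference of azacitidine 1 µM minus vehicle in A549 for each tested member of 16 gene lists, 1 row per list, with the number of members in brackets. Filled points passed the test (red higher, blue lower), open points did not, black bars are list medians and the dashed line is the median of all 8024 genes at -0.01. The integrated stress response sits farthest to the right, with a median of 0.91, and the secretory proteins farthest to the left, at -0.65.

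Of the 44 measured members of the integrated stress response list, 39 rose and 0 fell, beside 13.1% and 12.1% of all genes. The list was written from general knowledge with earlier results of these data known, so its count is not independent of them. The list median was 0.91 against -0.01 over all genes. The members that rose covered each arm of the programme, from transcription factors to amino acid enzymes, transporters and transfer RNA synthetases. Leaving out any 1 of the 4 arrays left 36 to 39 called, and 11 other settings gave 35 to 39.

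Short stretches of promoter are shown first, because the list is often defined by a composite C/EBP and ATF element through which ATF4 acts. The letters TGATGNAA were searched on both strands in RefSeq promoter windows (GRCh38.p14) of 250 bases before to 50 after a start site. No other motif was searched. Windows were found for 37 of the 44 tested members, and 13 of those genes, 35.1%, held a match. All 13 rose at 1 µM, but so did most members without a match, since 35 of all 37 with a window rose. Among all tested genes with a window, 189 of 6663, 2.84%, held one, and 3.62% of all 35116 windows did. The stretches below lie upstream of the start site, read 5' to 3' along the gene, with the match in capitals. Where the capitals hold its reverse complement, the motif is on the opposite strand. Upstream matches of GARS1, HERPUD1 and SLC1A5, which rose by 1.10, 0.38 and 0.64, are not shown. The matches of the remaining genes reached past the start site or lay on a chromosome left out of the listing, and are not shown either. A match is a description of these letters and not a measured binding site.
ASNS, chr7:97872445-97872500, minus strand: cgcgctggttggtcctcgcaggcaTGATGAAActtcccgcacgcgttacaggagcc
ATF3, chr1:212565192-212565247, plus strand: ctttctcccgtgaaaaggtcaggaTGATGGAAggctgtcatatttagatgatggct
CHAC1, chr15:40953238-40953293, plus strand: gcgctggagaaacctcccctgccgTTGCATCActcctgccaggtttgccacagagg
CEBPG, chr19:33374047-33374102, plus strand: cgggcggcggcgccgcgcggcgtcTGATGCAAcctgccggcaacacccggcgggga
AARS1, chr16:70289662-70289717, minus strand: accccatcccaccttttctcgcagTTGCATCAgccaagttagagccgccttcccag
The windows of NIBAN1, TRIB3, DDIT3 and STC2, which rose among the most, did not hold these letters.

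The transcription factors of the programme rose at 1 µM. ATF4 read 3803 and 5256 with vehicle and 7535 and 9197 with azacitidine, a log2 difference of 0.89 ± 0.13 (SE, n = 2 and 2; limma adjusted p = 3.5e-05). Both treated arrays were above both vehicle arrays, although the message of ATF4 is regulated mainly at translation, which these arrays do not measure. ATF3, a bZIP factor induced downstream of ATF4, read 122 and 131 with vehicle and 793 and 551 with azacitidine, a difference of 2.13 ± 0.15. DDIT3, which encodes the pro-apoptotic factor CHOP, read 195 and 187 against 647 and 718, a difference of 1.68 ± 0.16. CEBPG, a partner of ATF4, rose by 1.12 and CEBPB by 0.70. NUPR1, a small stress-induced nuclear protein, read 533 and 589 against 1961 and 2204, a difference of 1.83 ± 0.16, and the groups did not overlap.

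The largest rise of any tested gene was that of NIBAN1, which encodes a stress-inducible regulator of translation and cell survival. It read 75.7 and 60.9 on the vehicle arrays, below the array median, and 926 and 915 on the treated arrays, a ratio of signals of 13.5 and a log2 difference of 3.25 ± 0.11 (SE, n = 2 and 2; limma adjusted p = 7.97e-15). TRIB3, a pseudokinase that dampens ATF4 and AKT signalling, read 1159 and 1187 against 7457 and 6582, a difference of 2.55 ± 0.08. STC2, a secreted glycoprotein, read 208 and 202 against 914 and 947, a difference of 2.02 ± 0.12. In all these genes the treated arrays lay well clear of the vehicle arrays. CHAC1, which degrades glutathione, read 116 and 114 against 398 and 463, a difference of 1.65 ± 0.16.

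Enzymes of amino acid synthesis rose as a block. ASNS, asparagine synthetase, read 1830 and 1856 with vehicle and 6412 and 6657 with azacitidine, a difference of 1.81 ± 0.07 (SE, n = 2 and 2; limma adjusted p = 7.35e-14). The serine pathway enzymes PSAT1 and PHGDH rose by 1.26 ± 0.14 and 0.93 ± 0.08, and the transsulfuration enzymes CTH and CBS by 1.39 ± 0.15 and 1.20. Mitochondrial PCK2 rose by 1.36. PSPH, the last enzyme of the serine pathway, was 0.22 higher and did not pass the test.

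The transfer RNA synthetases GARS1, SARS1, CARS1, WARS1, AARS1, EPRS1 and NARS1 rose by 1.10, 1.08, 1.04, 0.99, 0.81, 0.57 and 0.55. Amino acid transporters divided. SLC1A4, SLC7A1 and SLC1A5 rose by 1.09, 0.86 and 0.64. The cystine carrier SLC7A11 read 6627 and 5682 with vehicle and 6471 and 6705 with azacitidine, so that its groups overlapped, and its difference of 0.10 had a 95% interval of -0.13 to 0.33. The leucine carrier SLC7A5 differed by 0.16 and was not called, and its partner chain SLC3A2 rose by 0.38. With PSPH, CLIC4 (0.26) and VEGFA (0.30), these were the 5 members that did not pass.

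**Figure D2:**
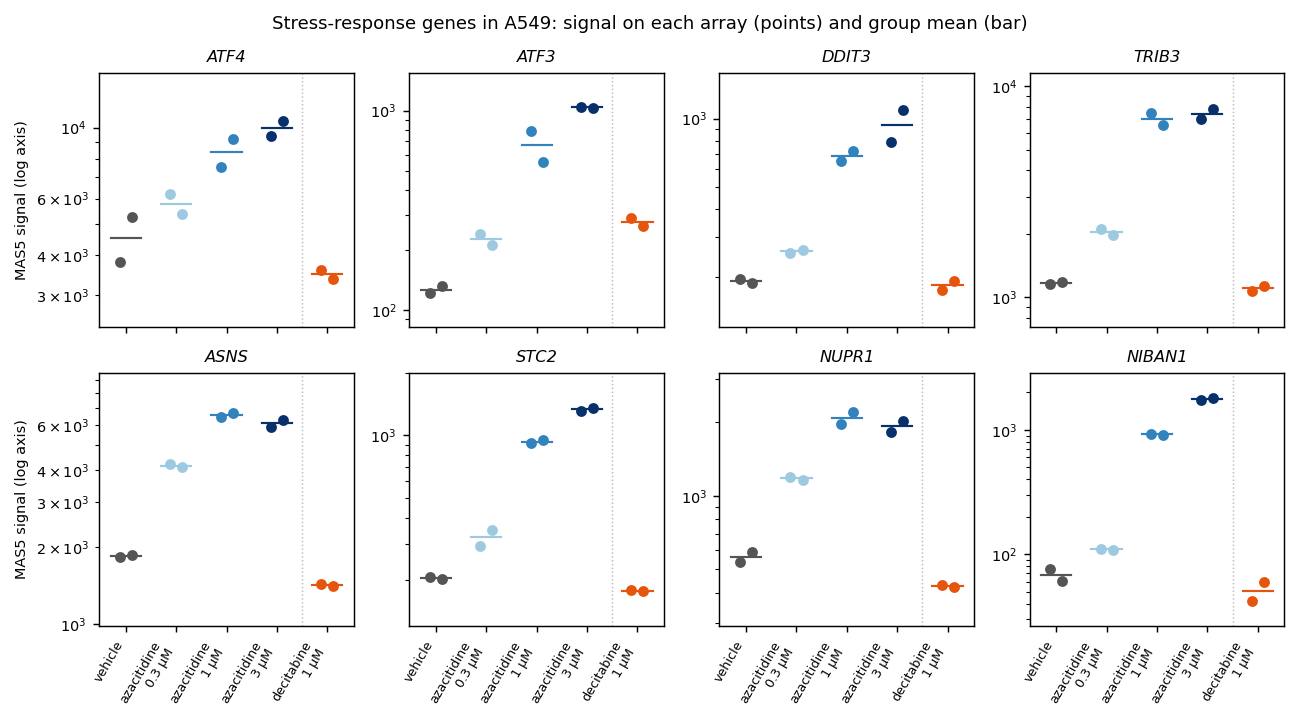
MAS5 signal (log axis) of 8 stress-response genes on each A549 array (points) with the group mean (bar), for vehicle, azacitidine at 0.3, 1 and 3 µM and decitabine at 1 µM, 2 arrays a group. Both arrays at azacitidine 1 µM lie above both vehicle arrays in every panel, and the decitabine arrays lie near or below vehicle except for ATF3 (288 and 264 against 122 and 131).

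The chaperone arm of the unfolded protein response did not move with it. Of 19 measured endoplasmic reticulum chaperones and folding factors, 1 rose and 7 fell, with a median of -0.14. HSPA5, the chaperone BiP, read 5959 and 6400 with vehicle and 5988 and 6749 with azacitidine, a difference of 0.04 with a 95% interval of -0.11 to 0.19. CALR, calreticulin, read 1771 and 1992 against 870 and 912, a fall of 1.05 on the log2 scale (SE 0.10, limma adjusted p = 9.24e-08), and the disulfide isomerases PDIA3 and PDIA4 fell by 1.02 and 1.00. XBP1, the transcription factor of the pathway's IRE1 branch, was the member that rose, from 693 and 658 to 1369 and 1236, a difference of 0.91 ± 0.13. The arrays do not separate spliced from unspliced XBP1. Of 13 heat shock genes, 0 rose and 2 fell, near the 12.1% of all genes that fell. These were HSPB1, by 0.73, and DNAJB1, by 0.29, the latter not called when only the 4 arrays of the comparison were fitted.

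Other genes with large rises lay outside these lists. RBCK1, a subunit of the linear ubiquitin ligase, read 1987 and 2267 with vehicle and 7092 and 8785 with azacitidine, a difference of 1.88 ± 0.09 (limma adjusted p = 2.84e-12). HK2, a hexokinase, read 49.6 and 12.4 against 192 and 200, a difference of 1.92 ± 0.19. It stood almost alone among 19 glycolysis genes, of which 2 rose and 4 fell, PFKFB3 by 0.74; 1 rose without vehicle replicate 1, vehicle replicate 2 or azacitidine replicate 2, and 7 fell after quantile normalization. Of 28 AP-1 and immediate early genes, 11 rose and 2 fell. Beside ATF3 these included KLF4 (1.30), MAFF (1.19) and the phosphatase DUSP5 (0.79), while FOS differed by -0.32 and was not called. Another probe set of KLF4 gave -0.583, the opposite direction, and another of MAFF gave 0.252, neither called.

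Ribosome biogenesis genes, which process ribosomal RNA and assemble subunits, moved one way: 29 of 48 rose and 0 fell, with a median of 0.33. DDX10, an RNA helicase, read 1678 and 1613 with vehicle and 3140 and 3498 with azacitidine, a difference of 1.00 ± 0.10. NOL9, UTP6 and PES1 rose by 0.72, 0.66 and 0.63, and MYC, a transcriptional activator of this group, by 0.59. The count fell to 18 without vehicle replicate 1 and to 15 without azacitidine replicate 2. Cytosolic ribosomal protein genes had 12 of 46 called higher and a median of 0.26, but this rested on the scaling and on single arrays: the median was 0.06 after quantile normalization, and 1, 2, 27 and 29 members were called when vehicle replicate 1, azacitidine replicate 2, azacitidine replicate 1 or vehicle replicate 2 was left out.

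Cancer-testis genes, germline genes that are methylated and silent in most somatic cells and are the textbook targets of these drugs, also rose from a low base. Of 43 listed members 19 were measured. The filter on dim signal counted arrays of all groups, so a silent gene could enter through treated arrays where it was high. Of these 19, 8 rose and 0 fell, with a median of 0.29, beside 13.1% of all genes higher. A fall from the floor could not show, so the lack of falls was partly set by this choice. MAGEA4 read 19.3 and 13.8 with vehicle and 184 and 119 with azacitidine, a difference of 1.90 ± 0.20 (SE, n = 2 and 2; limma adjusted p = 5.09e-07). SPANXB1 read 39.2 and 51.0 against 262 and 204, a difference of 1.78 ± 0.24, and MAGEA1 read 7.12 and 33.5 against 146 and 114, a difference of 1.67 ± 0.15. All 3 lay below the array median on both vehicle arrays, and their treated and vehicle arrays did not overlap. MAGEB2 read 64.0 and 27.98 with vehicle and 224 and 200 with azacitidine, a difference of 1.68 ± 0.17. The germ cell gene DAZL read 27.2 and 13.7 against 35.5 and 28.2, a difference of 0.29 that was not called.

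The 250 bases before the start sites of MAGEB2 and SPANXB1 are shown with CG dinucleotides, the sites of methylation, in capitals, because both genes rose with both drugs in A549. They hold 15 and 8 such sites, beside a median of 11 in the same stretch over all 35116 windows and 10 over the 26 windows of the tested cancer-testis genes. Methylation was not measured here.
MAGEB2, chrX:30215313-30215562, plus strand: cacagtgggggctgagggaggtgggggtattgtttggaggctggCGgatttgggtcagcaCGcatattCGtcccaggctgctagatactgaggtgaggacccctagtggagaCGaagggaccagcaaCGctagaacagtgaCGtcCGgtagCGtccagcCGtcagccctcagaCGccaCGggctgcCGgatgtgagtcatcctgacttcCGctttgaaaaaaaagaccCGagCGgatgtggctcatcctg
SPANXB1, chrX:141002344-141002593, plus strand: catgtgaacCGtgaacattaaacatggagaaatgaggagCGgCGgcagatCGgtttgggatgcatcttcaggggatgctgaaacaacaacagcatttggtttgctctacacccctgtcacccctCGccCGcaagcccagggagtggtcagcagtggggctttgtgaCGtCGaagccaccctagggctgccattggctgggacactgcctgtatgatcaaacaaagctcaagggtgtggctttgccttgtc

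Genes that respond to p53 did not move together. Of 34 measured targets 5 rose and 7 fell, with a median of -0.11. CDKN1A, the cell cycle inhibitor p21, read 1078 and 1259 with vehicle and 1071 and 1209 with azacitidine, and the groups overlapped. Its difference of -0.03 had a 95% interval of -0.23 to 0.17. The death receptor FAS differed by -0.03 and MDM2, the ligase that degrades p53, by -0.30, and neither was called. Those that rose were GDF15 (1.05, not called with a pseudocount of 1), PMAIP1 (1.04), GADD45A (0.65), XPC (0.61) and TNFRSF10B (0.48), of which GDF15 and TNFRSF10B also belong to the stress response list. CCNG2, APAF1 and ACTA2 fell by 0.98, 0.92 and 0.53, and APAF1 was not called without vehicle replicate 1. Other probe sets of CCNG2 gave -0.385 and -0.020 and were not called. Among 24 genes of apoptosis, 5 rose and 4 fell; 3 rose without vehicle replicate 1 or azacitidine replicate 1, 8 rose after quantile normalization, and 1 fell without vehicle replicate 1 and 2 without azacitidine replicate 2.

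The largest falls included the fibrinogen chains and other secreted products of A549, of which 8 of 16 measured fell and 1, MUC5AC, rose, a call lost without vehicle replicate 1 or azacitidine replicate 2. FGB read 679 and 625 with vehicle and 137 and 130 with azacitidine, a fall of 2.05 on the log2 scale (SE 0.19; limma adjusted p = 9.24e-08). FGG fell by 1.63 and FGA by 1.40, so all 3 chains of fibrinogen were lower. AGR2, a disulfide isomerase of mucin-secreting epithelium, read 2491 and 1932 against 482 and 542, a fall of 2.04 (SE 0.12). TM4SF4, a tetraspan membrane protein, read 171 and 182 against 10.5 and 76.4, a fall of 1.62 in which the treated arrays differed widely but stayed below both vehicle arrays. CYP3A4, the drug-metabolizing cytochrome, read 235 and 172 against 22.2 and 24.3, a fall of 2.08 (SE 0.29), with both treated arrays below the array median. Its close paralogs may share its probes.

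Matrix genes fell with them. Of 25 mesenchymal markers 16 fell and 1, TWIST1, rose, with a median of -0.58; 0 rose without vehicle replicate 2 or azacitidine replicate 2, and 2 without vehicle replicate 1. FN1, fibronectin, read 2873 and 3181 with vehicle and 846 and 823 with azacitidine, a fall of 1.82 (SE 0.22; limma adjusted p = 2.94e-06). COL5A1 read 942 and 1035 against 329 and 283, a fall of 1.59 (SE 0.21), and COL5A2 and THBS1 fell by 1.25 and 1.04. COL21A1 read 104 and 50.9 against 2.66 and 3.34, a fall of 1.60 below the array median on all 4 arrays. VIM, vimentin, was 0.13 higher and was not called. Summed over 16 fibroblast and endothelial markers, the signal was 1896 and 1572 with vehicle and 1200 and 1139 with azacitidine, with 12 of the 16 below the array median in each group; the part of this in the matrix result was not tested.

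Epithelial markers fell in the same cells. Of 21 measured, 11 fell and 0 rose, with a median of -0.51, and 7 fell and 1 rose without vehicle replicate 1. JUP, plakoglobin of the desmosome, read 1163 and 1470 with vehicle and 444 and 436 with azacitidine, a fall of 1.51 (SE 0.19; limma adjusted p = 4.64e-06). CD24, a surface glycoprotein, read 5812 and 5993 against 2394 and 2543, a fall of 1.25 (SE 0.20). CDH1, E-cadherin, read 191 and 199 against 83.2 and 117, a fall of 0.79 that was not called with a pseudocount of 1. The keratins KRT7 and KRT18 differed by 0.23 and -0.11 and were not called.

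The chemokine CCL2 read 578 and 667 with vehicle and 114 and 132 with azacitidine, a fall of 2.08 (SE 0.17; limma adjusted p = 1.31e-08). Another chemokine, CXCL2, moved the other way, from 213 and 201 to 503 and 510, a rise of 1.17 ± 0.14. Interferon-stimulated genes showed no common direction, with 3 of 28 higher and 6 lower. Without vehicle replicate 1 there were 0 higher and 1 lower, without azacitidine replicate 2 there were 1 and 2, and without azacitidine replicate 1 there were 3 and 2. IFIT1 fell by 1.27 to 6.51 and 11.2, below the array median. The water and glycerol channel AQP3 read 303 and 284 against 86.1 and 62.1, a fall of 1.63 (SE 0.14). Another AQP3 probe set gave -0.185 and was not called. THSD7A, a membrane protein, fell by 1.62, and CHRNA3, a nicotinic receptor subunit whose vehicle arrays read 71.2 and 209, by 1.72 (limma adjusted p = 0.0158), a call lost without vehicle replicate 2 or azacitidine replicate 1.

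**Figure D3:**
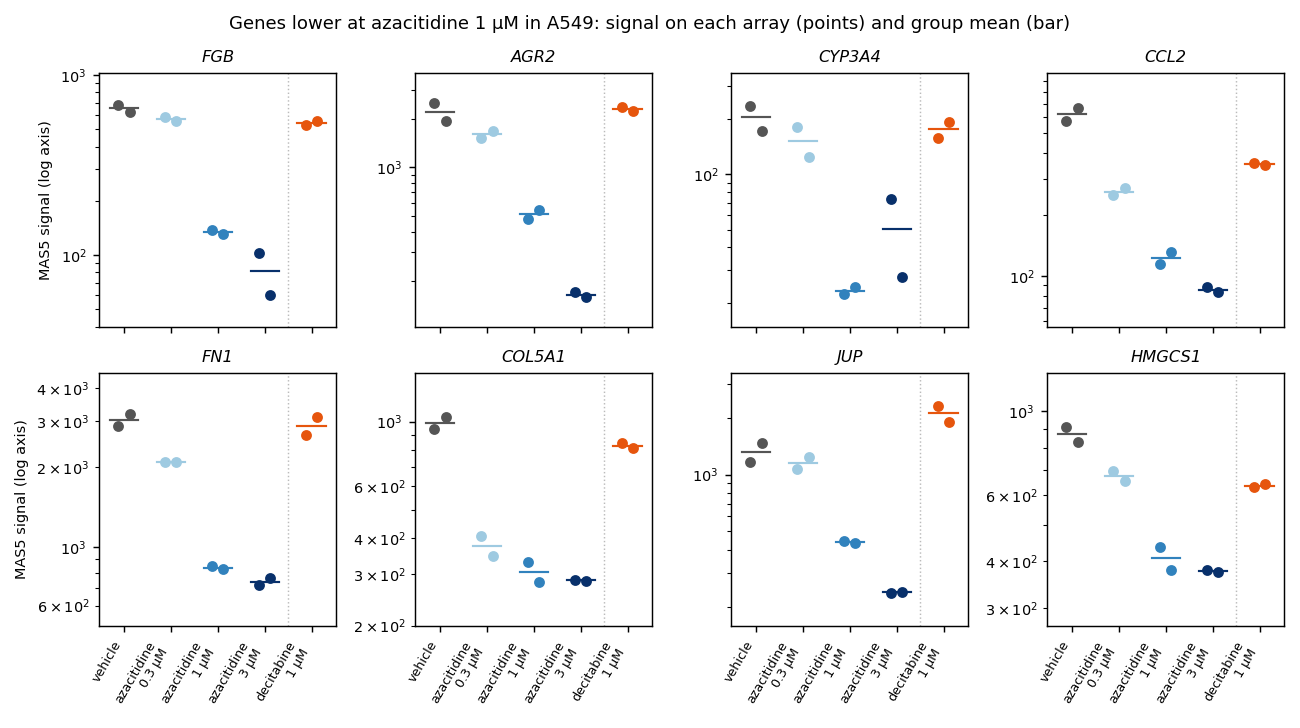
MAS5 signal (log axis) of 8 genes lower at azacitidine 1 µM on each A549 array (points) with the group mean (bar), in the same groups, 2 arrays each. Both arrays at azacitidine 1 µM lie below both vehicle arrays in every panel, and the decitabine arrays of JUP (2313 and 1906) lie above vehicle (1163 and 1470).

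Cholesterol synthesis genes fell. Of 17 cholesterol synthesis genes 12 fell and 0 rose, with a median of -0.41. HMGCS1, which makes the precursor of mevalonate, read 909 and 830 with vehicle and 436 and 380 with azacitidine, a fall of 1.04 (SE 0.13; limma adjusted p = 8.14e-06). MSMO1, ACAT2 and INSIG1, a feedback protein of the pathway, fell by 0.99, 0.98 and 0.96. Of 8 metallothionein list genes, which bind zinc and copper, 5 fell and 0 rose, and 3 were called without vehicle replicate 1 or azacitidine replicate 2; the genes are near-identical, so their probes may share signal. MT1X read 1766 and 1789 against 917 and 949. Oxidative phosphorylation genes had 4 of 55 higher and 4 lower, with a median of 0.04. Without single arrays 1 to 9 were higher (9 without vehicle replicate 2, 1 without vehicle replicate 1 or azacitidine replicate 2) and 1 to 4 lower, and quantile normalization gave 3 higher and 10 lower with a median of -0.06. NRF2 targets, the antioxidant genes that are constitutively high in A549, had 6 of 29 higher and 4 lower: OSGIN1 rose by 1.13 and GPX2 fell by 1.53, a fall not called with a pseudocount of 1. Of the NRF2 targets 3 were higher without azacitidine replicate 2, and 2 lower without vehicle replicate 2.

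Cell cycle genes were lower, by less. Of 62 G2 and mitosis genes 28 fell and 1 rose, with a median of -0.25, and of 57 G1/S and replication genes 14 fell and 5 rose, with a median of -0.17; 3 of the latter list rose without vehicle replicate 2 or azacitidine replicate 2. With only the arrays of the comparison fitted, 14 G2 and mitosis genes were called lower and 0 higher. The G1/S and replication list then had 8 called lower and 1 higher. STMN1, a microtubule regulator, read 722 and 652 with vehicle and 351 and 370 with azacitidine, a fall of 0.87 (SE 0.12). The repressor E2F8 fell by 1.05, SPC25 of the kinetochore by 0.83 and the proliferation marker MKI67 by 0.53. CDK1 differed by -0.17 and CCNB1 by -0.15, and neither was called. In bulk RNA, fewer cells of a phase and less RNA per cell cannot be told apart. Of 12 replication-dependent histone genes, whose lists share near-identical sequence, 5 fell, and 3 without azacitidine replicate 2.

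Of 24 genes of cytidine analog uptake and metabolism 3 rose and 5 fell, with a median of 0.02, and 3 fell without vehicle replicate 2 or either treated array. DNMT1, the maintenance methyltransferase that these drugs trap as protein, read 1458 and 1420 with vehicle and 1425 and 1411 with azacitidine, a difference of -0.02 with a 95% interval of -0.17 to 0.12. DNMT3B differed by -0.29 and was not called. DNMT3A was 0.46 higher, a call lost when vehicle replicate 1 or either treated array was left out. CDA, cytidine deaminase, which inactivates both drugs, read 125 and 144 against 58.1 and 58.4, a fall of 0.88 (limma adjusted p = 0.0125) that was not called without vehicle replicate 2 or either treated array. RRM2, of the ribonucleotide reductase that converts azacitidine to its deoxy form, fell by 0.51 and its partner RRM1 differed by -0.17, not called. TK1, thymidine kinase, fell by 0.80 and NT5E, which removes phosphate from nucleotides outside the cell, by 0.56. CTPS1, which makes the competing cytidine nucleotide, rose by 0.62 and UPP1, uridine phosphorylase, by 1.10. DCK, the kinase of decitabine, and SLC29A1, a nucleoside carrier, differed by -0.29 and -0.09, not called, and UCK1 and UCK2, the kinases of azacitidine, were not tested because no singly named probe set passed the filter on dim signal.

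Genes reported as methylated in lung cancer did not rise as a group: 4 of 29 rose and 11 fell, with a median of -0.17. Without azacitidine replicate 2 there were 1 higher and 7 lower, without vehicle replicate 1 there were 1 and 8, and without vehicle replicate 2 there were 4 and 7. RASSF1 read 73.1 and 138 with vehicle and 158 and 252 with azacitidine, a difference of 0.80 ± 0.26 (limma adjusted p = 0.0284), and the call was lost without vehicle replicate 1 or azacitidine replicate 2. DKK3 fell by 1.19 and SPARC by 0.98.

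The place of 1 µM in the dose series was tested directly against the neighbouring doses. These comparisons, and those with vehicle, share arrays, so their values are given side by side and not correlated. Between 0.3 and 1 µM, 520 genes rose, 6.48%, and 417 fell, 5.20%. Of the stress response list, 32 of 44 were higher at 1 than at 0.3 µM and 0 lower, and 21 were higher without 0.3 µM replicate 2. Between 1 and 3 µM, 290 genes rose, 3.61%, and 221 fell, 2.75%, and of the stress response list 5 were higher and 1 lower at 3 µM, with a median of -0.01; 1 was higher without 1 µM replicate 2, and 2 without any other single array of the step. With each array centred on its median instead, the upper step had 107 genes higher and 457 lower. That step's counts also moved with single arrays: they were 167 higher and 157 lower without azacitidine 1 µM replicate 1, 49 and 41 without its replicate 2, 31 and 48 without 3 µM replicate 1, and 133 and 154 without 3 µM replicate 2. Those of the lower step were 273 higher and 231 lower without 0.3 µM replicate 1, 243 and 202 without its replicate 2, and 219 and 253 without 1 µM replicate 2.

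Single genes differed in where along the doses they moved. ASNS read 4226 and 4089 at 0.3 µM, so that it was already 1.16 above vehicle there, 1.81 at 1 µM and 1.70 at 3 µM, and the step from 1 to 3 µM was -0.11 (not called). TRIB3 was 0.79, 2.55 and 2.63 above vehicle at the 3 doses, and its upper step of 0.08 was not called. NIBAN1 read 111 and 108 at 0.3 µM and 1731 and 1791 at 3 µM, with steps of 2.75 and then 0.91, both called. HK2, which read 41.8 and 39.4 at 0.3 µM and 405 and 434 at 3 µM, also rose at both steps, by 1.65 and 0.99.

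COL5A1 read 407 and 346 at 0.3 µM, near its 1 µM values, and its step from 0.3 to 1 µM was -0.27 (not called). FGB and FGA read 583 and 556, and 413 and 399, at 0.3 µM, near vehicle, and fell by 1.86 and 1.37 at the lower step. AGR2 fell at both steps, by 1.58 and 1.47, to 169 and 158 at 3 µM. IFITM3, an interferon-stimulated gene, had its highest readings at the lowest dose: 31.4 and 43.6 with vehicle, 201 and 173 at 0.3 µM, 59.1 and 86.4 at 1 µM and 19.0 and 37.7 at 3 µM. Its steps of -1.07 and -0.80 were both called; its 1 µM call against vehicle (0.59) was lost without vehicle replicate 1 or azacitidine replicate 2. DAZL led the upper step, at 1.33, to 128.2 and 128.8.

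Azacitidine and decitabine, which differ by the hydroxyl group that makes the sugar ribose or deoxyribose, were compared at the matched dose of 1 µM and 48 h. This was the 1 pair of compounds compared, with p-values adjusted over the 8024 genes. With azacitidine 1315 genes were higher, 16.4%, and 1438 lower, 17.9%, than with decitabine. Among the 282 called genes that differed by at least 1 on the log2 scale, 71 were higher with azacitidine and 211 lower.

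The stress response list was higher with azacitidine in 39 of 44 members and lower in 0, with a median of 0.94. NIBAN1 read 42.3 and 59.7 with decitabine, below the array median, and 926 and 915 with azacitidine, a difference of 3.53 ± 0.11 (SE, n = 2 and 2; limma adjusted p = 1.7e-15). TRIB3 read 1069 and 1138, a difference of 2.63 ± 0.08, and ASNS 1430 and 1409, a difference of 2.18 ± 0.07. ASNS was lower with decitabine than with vehicle, by 0.37. Not every member separated the drugs. CTH, which read 240 and 207 with decitabine, differed by 0.14 with a 95% interval of -0.17 to 0.45, and GDF15, at 1031 and 912, by -0.11 with an interval of -0.59 to 0.37. Ribosome biogenesis genes were higher with azacitidine in 31 of 48 and lower in 0 (18 higher without azacitidine replicate 2 and 20 without decitabine replicate 1), and cholesterol synthesis genes lower in 12 of 17 and higher in 0.

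The p53 targets, which did not move together with azacitidine, were lower than with decitabine in 23 of 34 members and higher in 3, with a median of -0.73; 1 was higher without azacitidine replicate 2 or either decitabine array. CDKN1A read 2982 and 3122 with decitabine, a difference of -1.40 (95% interval -1.60 to -1.20), and FAS 1319 and 1210, a difference of -1.39. Cancer-testis genes were lower with azacitidine in 14 of 19 and higher in 0. Silent genes could pass the filter through the decitabine arrays where they were high, which favours such a count. DAZL read 877 and 756 with decitabine, a difference of -3.73 ± 0.16. MAGEA4 read 787 and 567, a difference of -1.96 ± 0.20, and MAGEA1, at 219 and 180, was nearer, with -0.52 ± 0.15 (limma adjusted p = 0.0117).

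Several genes lay on opposite sides of vehicle with the 2 drugs. AQP3 read 1416 and 1436 with decitabine, 303 and 284 with vehicle and 86.1 and 62.1 with azacitidine, and the difference between drugs was -3.79 ± 0.14, the largest negative value called. These are values of its brightest probe set, and another was not called between azacitidine and vehicle. CDH1 read 660 and 664 with decitabine against 191 and 199 with vehicle, SPARC 1030 and 1226 against 358 and 369, and S100A2, a calcium-binding protein, 1330 and 1518 against 346 and 341. All 3 were lower than vehicle with azacitidine. LY6D, an epithelial surface protein, read 333 and 323 with decitabine and stayed between 1.88 and 5.87 on the vehicle and azacitidine arrays. Of the epithelial markers, 15 of 21 were lower with azacitidine than with decitabine and 1 was higher, a call lost without either decitabine array or either azacitidine array. Some genes that fell with both did not separate them: STMN1 differed by -0.01 (95% interval -0.25 to 0.23) and E2F8 by -0.16 (-0.41 to 0.09).

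**Figure D4:**
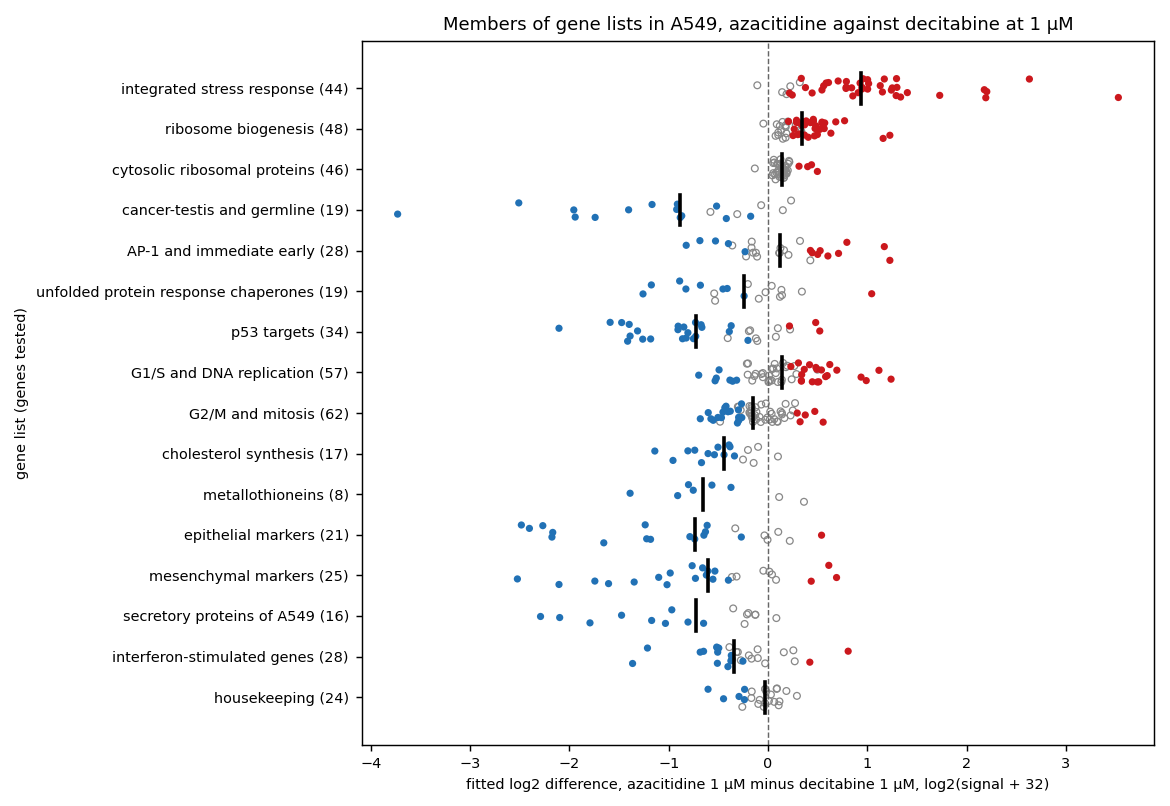
Fitted log2 difference of azacitidine 1 µM minus decitabine 1 µM in A549 for each tested member of the same 16 lists, with the symbols as for the comparison with vehicle and the dashed line at the median of all genes. The integrated stress response lies to the right (median 0.94), and the cancer-testis and p53 lists lie to the left (medians -0.88 and -0.73).

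The same dose was tested in H1299, a line known to lack p53, and the difference between the lines' responses was tested as an interaction. The response was more positive in A549 for 519 genes, 6.47%, and more negative for 651, 8.11%; with median centring these were 606 and 509. Of the stress response list, 42 of 44 members rose in H1299 and 0 fell, beside 1593 of all 8024 genes higher there and 1235 lower. The interaction was called for 20 members, of which 5 were more positive and 15 less positive in A549. The count of 5 was smaller without H1299 vehicle replicate 2. DDIT3 read 271 and 247 with vehicle in H1299 and 3712 and 4052 with azacitidine, and the response in A549 was lower by 2.07 ± 0.22 (limma adjusted p = 1.32e-06). NIBAN1, at 1020 and 1019 with H1299 vehicle, rose by 1.29 there, and the A549 response was larger by 1.97 ± 0.16. ASNS did not separate the lines, with a difference of 0.05 and a 95% interval of -0.15 to 0.26.

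SLC7A11 and SLC7A5, which were not called in A549, rose in H1299 by 1.82 and 1.22 from lower levels (662 and 530, and 2195 and 2765), and both interactions were called (-1.71 and -1.06). HSPA5 rose in H1299 by 1.18, with an interaction of -1.14. CDKN1A rose in H1299 from 452 and 422 to 985 and 958, a difference of 1.10, and its interaction was -1.13 ± 0.14. The fibrinogen and AGR2 falls have no counterpart to compare, since FGB read 14.9 and 7.20 and AGR2 6.63 and 3.13 with vehicle in H1299.

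**Figure D5:**
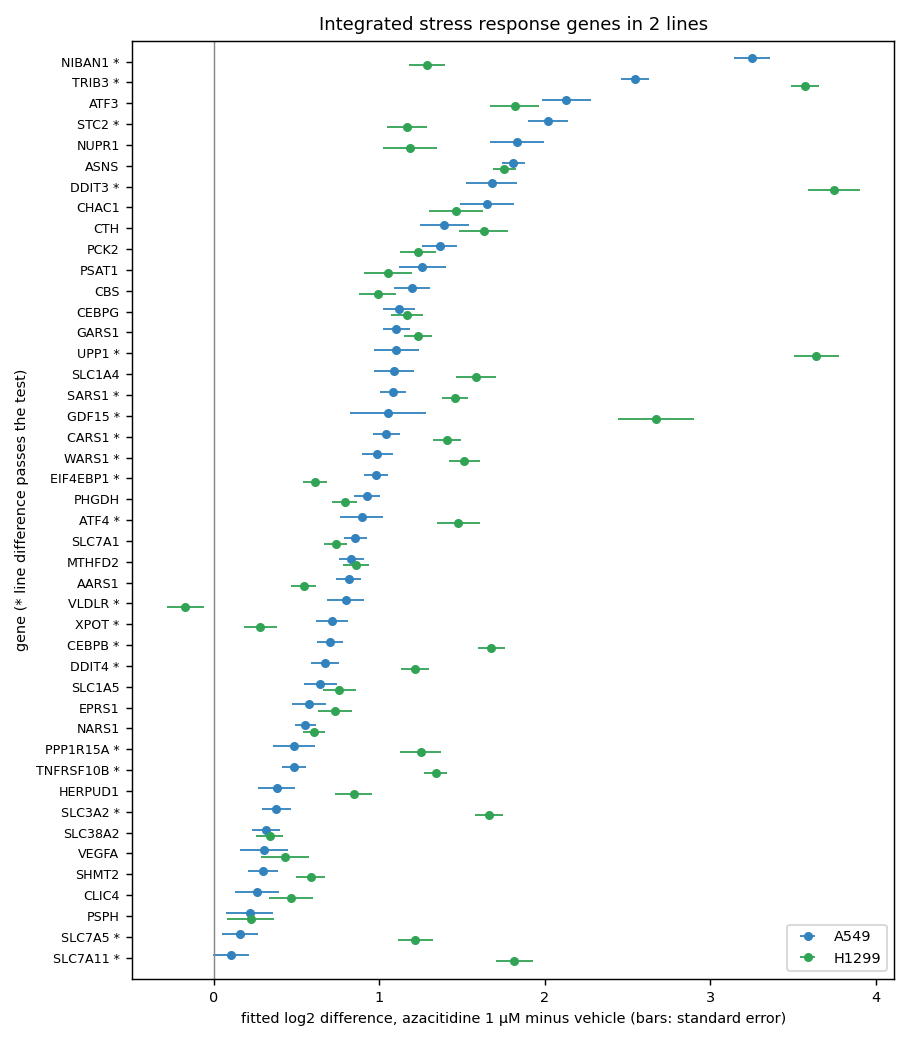
Fitted log2 difference of azacitidine 1 µM minus vehicle for the 44 tested genes of the integrated stress response list in A549 (blue) and H1299 (green), with standard errors as bars and 2 arrays a group. Asterisks mark the 20 genes whose response differed between the lines; NIBAN1 (3.25 and 1.29) and DDIT3 (1.68 and 3.75) lie on opposite sides.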

How the data were processed

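Values were the MAS5 intensity of 22277 probe sets on 28 arrays as deposited on a linear scale by the authors; MAS5 is named in the submitters' processing notes, its version not given in the sources used here. Per the platform annotation supplied here, 19070 probe sets carry a single gene symbol, 1043 carry several and 2164 carry none; checking identifiers against RefSeq changed 0 symbols. Probe sets above the array median on at least 2 arrays were kept (13249), and each gene took its brightest, giving 8024 genes.

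Signals entered limma 3.58.1 (R 4.3.3, the data.table package at version 1.17.8) as log2(signal + 32), with 1 mean per group over 14 groups, 14 residual degrees of freedom, eBayes with an intensity trend, and two-sided Benjamini-Hochberg adjustment over all genes at 0.05. The procedure was tested on simulated data. Intervals cover 95%. Figures used Python 3 with matplotlib. Alternatives varied scaling, pseudocount (1, 128), filter, probe set choice, arrays fitted, trend, replicate block and each array in turn.

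Text names the 12 largest rises and falls, up to 4 called members per list, a fixed panel and the 6 largest either way in the other contrasts. Genes outside this rule, such as CHAC1, PSAT1, CTH, SLC7A11, HSPA5, FAS and FGA, and the promoter motif were chosen after their values were seen. Comparison, lists and panel were chosen with earlier results of these data known. Of called genes, 15 had another probe set called the opposite way, none of them among the 140 genes of the naming rule. For genes named outside the rule this was not looked up. Other probe sets of some named genes were not called, those of AQP3, CCNG2, KLF4 and MAFF among them.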

Additional observations from a re-analysis of the deposited data

Results flagged for a closer look

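The response to azacitidine 1 µM was compared between A549 and H1299 by the interaction term in limma for 45 named genes. Of these, 33 differed at a Benjamini-Hochberg adjusted p below 0.05, and 1170 of all 8024 genes did. The named genes include those with the largest differences between the lines, which were chosen from this same test. Others were chosen for large responses in A549. The choice of genes therefore set much of the 33 of 45, which is not to be read against the 1170 of 8024. Values below are the A549 response minus the H1299 response on the log2 scale.

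The A549 response was the more positive for HK2 (2.24), HBQ1 (2.06), NIBAN1 (1.97), MAGEA4 (1.80), IL1RL1 (1.73), VAC14 (1.71), SPANXB1 (1.22), STC2 (0.85), RBCK1 (0.80) and DNMT1 (0.37). Of these, HK2 rose in A549 by 1.92 and differed by -0.32 in H1299, where its vehicle arrays read 2287 and 1617.

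It was the more negative for genes that rose in H1299, namely ATF4 (-0.58), DNMT3B (-0.68), TRIB3 (-1.03), CDKN1A (-1.13), DAZL (-2.02), DDIT3 (-2.07), LXN (-2.54), UPP1 (-2.54), TMEM47 (-2.59), DHRS2 (-3.41), MAGEB2 (-3.49) and TAC1 (-3.90). TAC1, a neuropeptide precursor, read 1.25 and 7.61 with vehicle in H1299 and 598 and 524 with azacitidine, and 13.5, 1.44, 13.9 and 7.76 on the A549 arrays of the comparison. MAGEB2 reached 2102 and 1944 in H1299.

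It was also the more negative for RRM2 (-0.34), FN1 (-0.94), COL5A1 (-1.18), TM4SF4 (-1.60), AQP3 (-1.81), AGR2 (-1.96), CYP3A4 (-2.01), FGG (-2.01), FGB (-2.03), CCL2 (-2.04) and THSD7A (-2.08). Several of these were near the floor in H1299 with vehicle, where a fall cannot show: CCL2 read 2.20 and 1.89, and TM4SF4 6.80 and 6.70.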

How the results depend on the processing

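The alternatives were run for the 140 genes of the naming rule and not for genes named outside it, such as CHAC1, PSAT1 and HSPA5. Of these 140 differences, each under 14 or 15 alternatives, none of the 122 called changed sign. Of the 18 not called, 6 (CDKN1A, DNMT1, SLC29A1, TAC1, LY6D and TMEM47) took values on both sides of 0. Of the 122 called, 73 kept the call in each and 49 lost it in at least 1; the genes concerned include CDA, RASSF1, DNMT3A, IFITM3, CHRNA3, HRK, MT1E, MT1F and, with a pseudocount of 1, CDH1, GPX2 and GDF15. Fitting only the arrays of a comparison, with far fewer residual degrees of freedom, gave 472 higher and 519 lower against vehicle, 266 higher against 0.3 µM, and 5 higher and 16 lower at 3 than at 1 µM. For that last step the A549 arrays alone gave 94 higher and 136 lower, median centring 107 and 457, and quantile normalization 157 higher. Counts of 0 to 2 members in the AP-1 (lower), heat shock, chaperone (higher), cancer-testis (lower), glycolysis (higher) and mitosis (higher) lists moved by at most 1 when single arrays were left out. Requiring a log2 difference of at least 1 left 65 higher and 86 lower. Leaving out 1 array at a time gave 643 to 915 higher, 610 to 855 lower, 219 to 366 higher and 202 to 298 lower against 0.3 µM, 31 to 167 higher and 41 to 157 lower at 3 than at 1 µM, 950 to 1004 higher and 1051 to 1139 lower against decitabine, and 341 to 446 more positive and 426 to 558 more negative in A549 than in H1299, the lowest of these last without H1299 vehicle replicate 2. Labels give each group replicates 1 and 2; with 2 pairs these numbers were not taken to pair samples (replicate differences of vehicle and treated arrays correlated at 0.263 across 8024 genes, which are not independent replicates). With a replicate block, 1104 genes were higher and 1012 lower, and cytosolic ribosomal proteins had 22 members higher. With 2 arrays a group, and dim genes drawn to 0 by the added 32, small differences of dim genes were not detectable.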
